A study of Mus musculus with 6 samples.

Results

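Hepatocytes kept with tumour necrosis factor alpha (TNFα) for 2 days were compared with untreated hepatocytes, on 2 arrays each. The arrays were chosen by their titles and are 4 of the 6 arrays of the series. The remaining 2 arrays came from cells given TNFα for 2 hours. They shared the statistical fit, where they added to the estimate of the spread, and their values are given where they show the time of a change. In all 3 groups the cells were primary hepatocytes, the liver cells that run its metabolism and make the plasma proteins, from male C57Bl/6J mice. They were plated on collagen in Williams' E medium with 5% fetal calf serum, 50 nM dexamethasone, a synthetic glucocorticoid, and 1 nM insulin. Treated cells received the recombinant murine cytokine at 2 ng/mL. Biotin-labelled cRNA was hybridised to Illumina arrays, and each probe has 1 linear intensity for every array. The labels give no age of the mice, nor whether the paired arrays of a group stem from different mice or cultures. The p-values therefore reflect the scatter between these arrays alone, and that scatter may be technical. They also give no time in culture for the untreated cells, so that a long exposure to TNFα and a longer culture cannot be told apart.

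TNFα is an inflammatory cytokine that hepatocytes meet in infection, injury and chronic liver disease. Its receptor Tnfrsf1a acts through the IκB kinases, which release NF-κB into the nucleus, where this factor turns on genes of chemokines, adhesion molecules, antigen processing and its own inhibitors. Hepatocytes also make most plasma proteins, dispose of ammonia through the urea cycle and carry the liver's glucose, bile acid and drug metabolism, much of it under liver-enriched transcription factors such as Hnf4a.

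After 2 days the cells held more RNA of chemokines, adhesion molecules, interferon response genes and antigen presentation genes, and less RNA of urea cycle, amino acid, drug, bile acid and apolipoprotein genes. Of 13438 genes tested, 906 were called higher (6.74% of all genes) and 795 lower (5.92%), at a Benjamini-Hochberg adjusted p under 0.05 by limma. Most of these changes were small: the median log2 change was 0.46 among the genes called higher and -0.48 among those called lower. A change of at least 2-fold was seen in 80 genes that rose (0.595%) and 89 that fell (0.662%), and of at least 4-fold in 5 and 13. The median change over all genes was 0.006, and single genes ranged from -3.13 to 3.33. The 2 untreated arrays differed by a median of 0.104 on the log2 scale and the 2 arrays of the 2 day group by 0.1, and arrays of the 2 groups correlated at 0.982 to 0.985 against 0.995 to 0.996 within a group. The arrays of both groups did not overlap for 49.6% of all genes, and they overlapped for 2 of the called genes. Calls were rarer among dim probes. With the genes divided into 4 equal groups by mean intensity, the dimmest held 22 rises and 6 falls, the second 92 and 52, the third 358 and 314, and the brightest 434 and 423. The intensities still held their background, so folds of dim genes are understated.

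**Figure D1:**
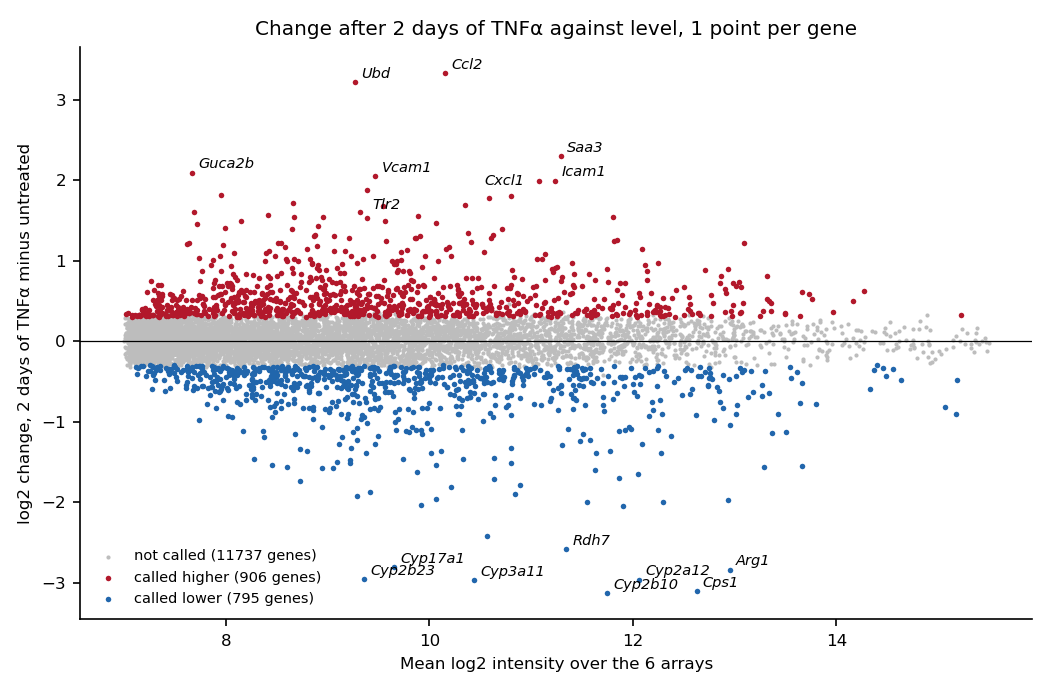
The log2 change between 2 days of TNFα and untreated cells is plotted against the mean log2 intensity over the 6 arrays, with 1 point per gene; red points were called higher (906 genes), blue points lower (795 genes) and grey points were not called. The falls reach further down at high intensity, where Cps1, Arg1 and Cyp2b10 lie near -3, while Ccl2 and Ubd stand alone above 3.

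The largest rises belonged to inflammatory genes and to a smaller set of epithelial genes. Ccl2, a chemokine that attracts monocytes, read 261 and 199 in the untreated arrays and 2401 and 2186 after 2 days, 10.1 times as much (log2 3.33, SE 0.12, adjusted p = 2.54e-16 by limma). The ubiquitin family modifier Ubd, which sends proteins to the proteasome, read 283 and 251 untreated and 2120.3 and 2903 after 2 days (log2 3.22, SE 0.12, adjusted p = 1.09e-15 by limma). Saa3, a serum amyloid of the acute phase, went from 1004 and 857 to 4439.6 and 4704 (log2 2.30, SE 0.10, adjusted p = 1.95e-14 by limma). For each of these 3 genes both treated arrays lay far above both untreated ones. Both guanylin genes, which encode gut peptides that activate the receptor guanylate cyclase C, also rose: Guca2b from 124 and 121 to 362 and 752 and Guca2a from 160.3 and 155 to 423 and 726. Their untreated values lay near the array median of 143. The arrays after 2 days stood well apart from each other, though both lay above the untreated ones (log2 2.09, SE 0.18, adjusted p = 3.2e-09 by limma for Guca2b). Guca2b read 134 and 129.8 at 2 hours, so it passed the filter on dim probes through the 2 day arrays alone, and its test is not independent of its high level there.

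Adhesion, chemokine and receptor genes formed the next group. The leukocyte adhesion molecule Vcam1 read 207 and 201 untreated and 824 and 868 after 2 days, and its relative Icam1 read 662 and 674 and 2723 and 2604. Cxcl1, which attracts neutrophils, went from 574 and 514 to 2055 and 2255, and Tlr2, a receptor for bacterial lipopeptides, from 221 and 229 to 784 and 869.5. Cxcl16, a membrane-bound chemokine and scavenger receptor, read 902 and 1021 and 3497 and 3193. In all 5 genes the 2 arrays of a group stood close together, with log2 changes between 1.80 and 2.05. The 15 largest rises, and the 15 largest falls below, were picked among called genes whose groups did not overlap. Their lack of overlap therefore follows from the choice. The other 5 of the 15 largest rises were more mixed. The hyaluronan receptor Cd44 read 472 and 491 untreated and 1688 and 1406 after 2 days. Sox9, a transcription factor of bile duct and progenitor cells, read 852 and 842 and 2796 and 3027, and Krt17, a keratin of stressed epithelia, 242 and 266 and 837 and 837. The secreted binding protein Igfbp7 rose from 864 and 845 to 3178 and 2405, and Gpr176, an orphan G protein-coupled receptor, from 141 and 142 to 437 and 421. Their log2 changes were 1.78, 1.72, 1.69 and 1.60, and 1.68 for Cd44. Gpr176 read 154 and 134 at 2 hours, so it would not have passed the filter on dim probes without the 2 day arrays. As for Guca2b, its test is not independent of its high level there. With normexp, a model that subtracts the background before log2, the changes of dim genes were larger, at 3.78 for Guca2b, 2.79 for Guca2a, 2.76 for Gpr176, 2.75 for Vcam1 and 4.03 for Ccl2. The other probes of Vcam1 and Cd44 changed less, from 0.05 to 0.50 and from 0.04 to 0.91.

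The largest falls were all of metabolic genes, and 6 of the 15 were cytochrome P450 genes. Cyp2b10, a drug-metabolising P450, read 7737 and 7958 in the untreated arrays and 912 and 879 after 2 days, 8.76-fold less (log2 -3.13, SE 0.11, adjusted p = 2.54e-16 by limma). Cps1, which starts the urea cycle, read 15129.5 and 12046 untreated and 1649 and 1496 after 2 days (log2 -3.10, SE 0.11, adjusted p = 2.54e-16 by limma). Arg1, which closes that cycle by releasing urea, went from 16188 and 14217 to 2101 and 2137 (log2 -2.84, SE 0.10, adjusted p = 3.97e-16 by limma). For each of these 3 genes the treated arrays stood close together and far below both untreated arrays. Among the other P450 genes Cyp3a11, which oxidises many drugs and steroids, read 3540.0 and 2567 and 311 and 476, Cyp2a12 9114 and 8589 and 988 and 1301, and Cyp17a1, a steroid hydroxylase, 1601 and 1387 and 223 and 203. Cyp2b23 (-2.96) and Cyp2a5 (5447 and 4634 and then 1281 and 1224) have close relatives whose RNA may bind the same probes, and their other probes gave -0.14 and between -0.53 and -0.13.

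The remaining 7 of the 15 largest falls span retinol, methyl group, urate, sulfate and lipid metabolism. Rdh7, a retinol dehydrogenase, read 5057 and 4458 untreated and 674 and 928 after 2 days, and Gnmt, which uses up methyl groups on glycine, 2490.3 and 2784 and 496 and 483. Uox, urate oxidase, read 7342 and 5549 and 1591 and 1485, and Acnat2, an acyltransferase of peroxisomes, 1696 and 1610.1 and 367 and 446. The sulfotransferases Sult1a1 and Sult1d1 went from 8940.0 and 7259 to 1795 and 2245 and from 2040.3 and 1567 to 458 and 459. Apoa4, an apolipoprotein of triglyceride-rich particles, read 11307 and 13583 and 3208 and 3116. The log2 changes of these 7 genes lay between -2.59 and -1.96, and their lack of overlap again follows from the choice. Some other probes changed less, by -0.60 for Cyp2b10, -0.41 for Acnat2 and -0.07 for Sult1d1, the last without a call, and from -2.03 to -0.51 for Gnmt. Those of Cps1, Arg1, Rdh7 and Apoa4 changed by -3.47 to -1.97. All 30 genes kept their calls without any 1 array and after normexp.

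**Figure D2:**
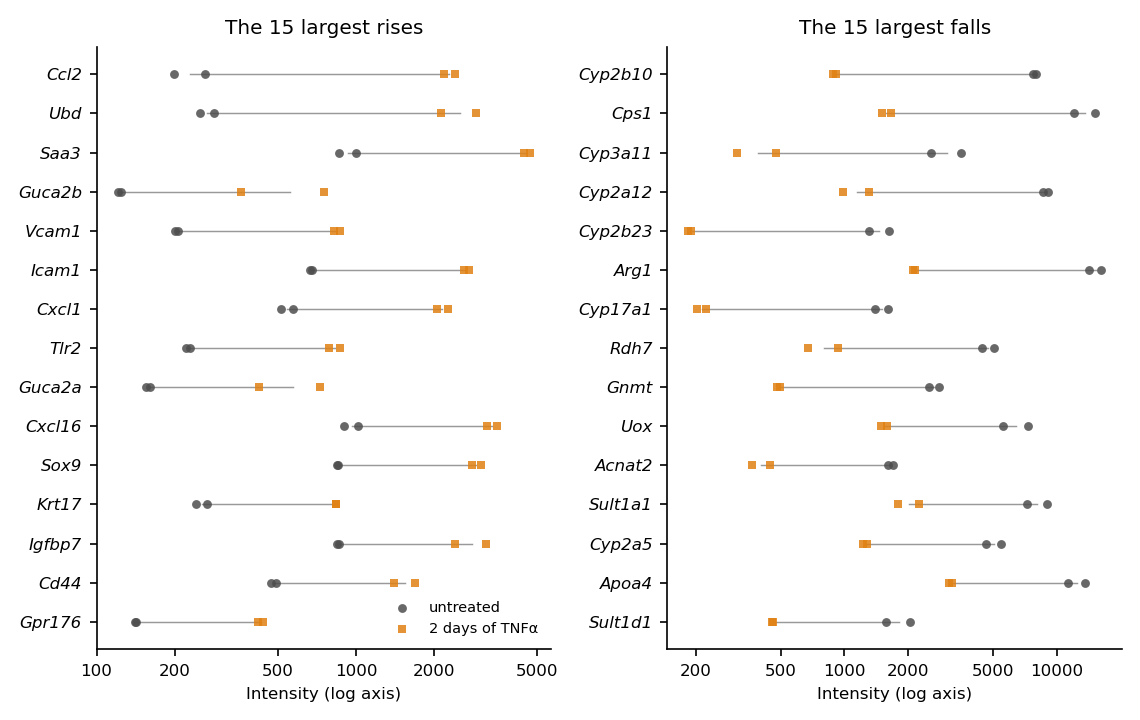
Intensity on a log axis of the 15 genes with the largest rise (left) and the 15 with the largest fall (right); grey circles are the 2 untreated arrays, orange squares the 2 arrays of cells given TNFα for 2 days, and each line joins the group means. The squares of Guca2b and Guca2a lie apart, at 362 and 752 and at 423 and 726, whereas the squares of Krt17, Arg1 and Sult1d1 nearly coincide.

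The 15 largest rises differed among themselves in their time, whereas the 15 largest falls were all larger at 2 days than at 2 hours. Since the 2 hour and the 2 day comparison share the untreated arrays, the values are given side by side, and the difference between 2 days and 2 hours was tested in the same fit, in which 15.3% of all genes were called, 8.63% higher at 2 days and 6.67% lower. The genes below were picked by their 2 day arrays, which this difference uses too, so that how many of them differ follows in part from the choice. Of the 15 largest rises, 5 read higher at 2 hours than at 2 days. Ccl2 read 2658 and 3059 at 2 hours, Vcam1 1914 and 2252, Icam1 7992 and 7746, Cxcl1 8544 and 8614 and Tlr2 1586 and 1618. The drop from 2 hours to 2 days was called for Vcam1 (-1.30), Icam1 (-1.56), Cxcl1 (-1.99) and Tlr2 (-0.96) and missed the threshold for Ccl2 (-0.32, adjusted p = 0.0755 by limma). Saa3 read 3658 and 3767 at 2 hours, and its further rise also missed the threshold (0.30, adjusted p = 0.0526 by limma). The other 9 rose between 2 hours and 2 days, by 0.90 for Cxcl16 to 2.79 for Ubd on the log2 scale, and Ubd still read 388 and 329.8 at 2 hours. All 15 largest falls were called lower at 2 days than at 2 hours, by -1.72 for Sult1d1 to -2.94 for Cyp17a1. Cps1, for example, read 11757 and 12075 at 2 hours and Arg1 14552 and 16386, both within or near their untreated range. Of the 15, only Cyp2b10 (-0.44) and Cyp2b23 (-0.46) had already been called lower at 2 hours than in untreated cells.

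**Figure D3:**
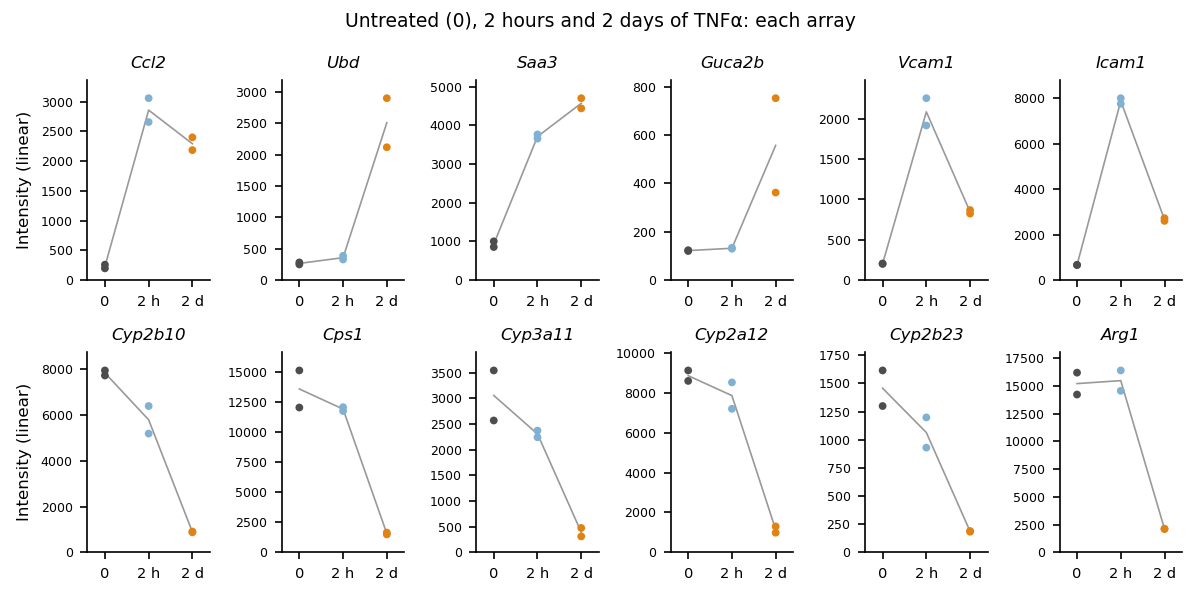
Intensity (linear axis from 0) of the 6 largest rises and the 6 largest falls in untreated cells (0), after 2 hours (2 h) and after 2 days (2 d) of TNFα; each point is 1 array and the line joins the means of 2. Vcam1 and Icam1 peak at 2 hours, Ubd and Guca2b are high at 2 days alone among these groups, and Cps1 and Arg1 are low at 2 days alone.

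The promoters of the 3 largest rises and the 3 largest falls present in the reference table are shown because these genes carry the extremes of the response. Each runs from 250 bases before to 50 bases after the RefSeq start of the gene on build GRCm38.p6, in the direction of transcription, and capitals mark the motifs found. Those of Ccl2 and Cps1 were not in that table.
Ubd, chr17:37193642-37193941, plus strand: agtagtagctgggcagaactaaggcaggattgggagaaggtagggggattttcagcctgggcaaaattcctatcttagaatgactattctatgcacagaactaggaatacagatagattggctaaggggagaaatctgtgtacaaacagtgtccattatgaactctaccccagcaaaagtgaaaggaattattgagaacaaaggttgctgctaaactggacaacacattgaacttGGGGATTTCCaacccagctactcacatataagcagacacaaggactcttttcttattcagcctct
Saa3, chr7:46715627-46715926, minus strand: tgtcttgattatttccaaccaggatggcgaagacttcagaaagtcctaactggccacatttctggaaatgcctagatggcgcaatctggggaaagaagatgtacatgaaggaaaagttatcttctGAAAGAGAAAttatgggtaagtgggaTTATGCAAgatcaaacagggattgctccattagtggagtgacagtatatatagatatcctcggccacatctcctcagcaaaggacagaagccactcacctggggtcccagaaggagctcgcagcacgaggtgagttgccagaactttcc
Guca2b, chr4:119658896-119659195, minus strand: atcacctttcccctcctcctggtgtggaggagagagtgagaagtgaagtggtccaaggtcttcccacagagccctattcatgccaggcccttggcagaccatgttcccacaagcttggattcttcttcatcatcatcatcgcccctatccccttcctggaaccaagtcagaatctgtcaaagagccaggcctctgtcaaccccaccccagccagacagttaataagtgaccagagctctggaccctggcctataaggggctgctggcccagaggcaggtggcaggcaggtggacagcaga
Cyp2b10, chr7:25897408-25897707, plus strand: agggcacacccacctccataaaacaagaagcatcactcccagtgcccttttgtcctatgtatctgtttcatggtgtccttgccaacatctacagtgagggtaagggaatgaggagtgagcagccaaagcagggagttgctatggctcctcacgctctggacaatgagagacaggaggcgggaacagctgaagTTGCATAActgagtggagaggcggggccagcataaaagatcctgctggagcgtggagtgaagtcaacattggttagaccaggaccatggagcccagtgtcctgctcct
Cyp3a11, chr5:145879805-145880104, minus strand: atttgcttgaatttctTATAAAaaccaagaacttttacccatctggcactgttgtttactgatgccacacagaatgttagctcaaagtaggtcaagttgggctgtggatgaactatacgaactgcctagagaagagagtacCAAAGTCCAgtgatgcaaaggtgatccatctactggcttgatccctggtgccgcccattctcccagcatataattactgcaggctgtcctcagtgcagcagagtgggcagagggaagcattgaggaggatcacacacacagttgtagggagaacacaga
Cyp2a12, chr7:27028840-27029139, plus strand: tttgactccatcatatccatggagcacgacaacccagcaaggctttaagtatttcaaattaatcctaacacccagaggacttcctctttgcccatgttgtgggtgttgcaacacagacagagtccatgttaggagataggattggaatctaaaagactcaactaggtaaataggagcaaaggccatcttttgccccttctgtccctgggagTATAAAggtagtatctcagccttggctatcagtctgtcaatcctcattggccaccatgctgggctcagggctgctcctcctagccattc

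Both strands were searched for 7 motifs. The Ubd promoter holds GGGGATTTCC, a match to the wide NF-κB pattern GGG, any 3 bases and TTCC, 15 bases before the start. Saa3 has the interferon-response core GAAA, any 2 bases and GAAA, 125 bases before its start. It also has the C/EBP pattern TTGCNNAA, read on the opposite strand, 99 bases before the start. Cyp2b10 has that pattern 58 bases before its start. Cyp3a11 holds CAAAGTCCA, a core of HNF4 sites, at 109 bases and the TATA box TATAAA at 234 bases, and Cyp2a12 holds TATAAA at 39 bases. None of the 7 motifs lies in the Guca2b window. The shares that follow use 1 promoter of 300 bases per gene, the first listed. Over all 27025 such promoters, the wide NF-κB pattern occurs in 5.52%, the interferon-response core in 3.49%, TTGCNNAA in 10.8%, CAAAGTCCA in 0.477% and TATAAA in 14.2%. Among genes that rose at least 2-fold with a promoter in the table, the wide NF-κB pattern lay in 10 of 62 (16.1%) and the interferon-response core in 7 (11.3%), against 5.78% and 3.15% of tested genes. Among 74 genes that fell at least 2-fold the same motifs lay in 0 and 2, CAAAGTCCA in 6 (8.11%, against 0.434% of tested genes), TTGCNNAA in 14 (18.9%, against 8.98%) and TATAAA in 18 (24.3%, against 9.75%). Among the 62 that rose, TATAAA lay in 11 (17.7%), TTGCNNAA in 7 (11.3%) and CAAAGTCCA in 0. The narrower NF-κB site, GGGA, any base and TTTCC, each match of which also matches the wide pattern, lay in 2 of the 62 and 0 of the 74, and the HNF1 site, GTTAAT, any base and ATTAA, in 0 of either. Over all called genes with a promoter, 733 higher and 644 lower, the shares were mostly nearer those of tested genes. The wide NF-κB pattern lay in 7.91% and 4.66%, the interferon-response core in 5.59% and 2.17% and CAAAGTCCA in 0.546% and 1.4%. TTGCNNAA lay in 9.28% and 10.2%, and TATAAA in 9.55% and 9.16%. These shares describe letters in short windows, and no binding was measured.

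Signalling genes of the NF-κB pathway rose in part. Of 26 tested subunits, inhibitors and feedback genes 11 were higher and 0 lower, with a median change of 0.16 (0.006 over all genes). Here and in every list below, counts stand against 6.74% of all genes called higher and 5.92% lower. In the brightest of the 4 intensity groups these shares were 12.9% and 12.6%. A count near these shares does not set a list apart. The inhibitor Nfkbia, which holds NF-κB in the cytoplasm, read 633 and 693 untreated and 1610.1 and 1711 after 2 days (1.32). Tnip1, which works with the ubiquitin editor A20, read 523 and 592 and 1366 and 1346 (1.28), and A20 itself, Tnfaip3, 253 and 243 and 444 and 448 (0.85). The kinase Ikbke (1.22) and the NF-κB target Tnfaip2 (0.88) also rose. The subunit Rela (0.03), the kinase scaffold Ikbkg (0.07) and the deubiquitinase Cyld (-0.13) were not called. Nfkbia has other probes, of which none was called in the same direction.

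Chemokine genes were split between a few large rises and many members near no change. 6 of 21 tested were higher and 0 lower, and the median was 0.11. Besides Ccl2, Cxcl1 and Cxcl16, the monocyte attractant Ccl7 read 149 and 129.6 untreated and 359 and 422 after 2 days (1.49) and Ccl9 read 648 and 387 and 1035 and 1169 (1.14). Cxcl12 (-0.15), Ccl25 (-0.22) and Ccl27a (0.08) were not called. Among adhesion molecules and integrins 7 of 22 were higher and 0 lower, with Itga3 (0.65) and Itga5 (0.53), subunits of laminin and fibronectin receptors, and the junctional molecule F11r (0.33) beside Vcam1, Icam1 and Cd44. Cd47 (0.23), Itgb5 (0.18) and Alcam (0.04) were not called, but the other probe of Cd47 was called higher (0.34). Itga5, F11r and Ccl9 lost their calls after normexp, and Itga5 and F11r lost theirs when 1 of the 4 arrays was left out. The call of F11r was lost whichever array was left out. Itga5 has other probes, of which none was called in the same direction.

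Cytokine receptors and feedback genes went both ways, 6 of 31 higher and 4 lower (median 0.05). The signalling inhibitor Socs2 read 1514 and 1658 untreated and 2948 and 2779 after 2 days (0.85), while Cish of the same family read 1151 and 1126 and 832 and 771 (-0.51). Il17rb (-0.88), a receptor chain for interleukin 25, and Il6ra (-0.55), which binds interleukin 6, fell, as did its signal transducer Stat3 (-0.35). Tgfb1 (0.51), Ifngr2 (0.50), a chain of the interferon gamma receptor, Il13ra1 (0.49) and Il18 (0.43) rose. The shared interleukin 6 receptor chain Il6st (-0.21), Osmr (0.32) and Ifngr1 (0.26) were not called. Stat3, Ifngr2, Il18 and Cish lost their calls after normexp, and Stat3, Ifngr2 and Il18 lost theirs when 1 of the 4 arrays was left out. Il6ra, Stat3 and Il18 have other probes, of which none was called in the same direction.

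Of 23 pattern recognition genes 4 were higher (17.4%, against 6.74% of all genes) and 2 lower (8.7%, against 5.92%). Beside Tlr2, its partner Cd14, which presents lipopolysaccharide, read 593 and 768 untreated and 1406 and 1411 after 2 days (1.06), and Irak3, an inhibitory kinase of this pathway, 270.3 and 227 and 577 and 550.4 (1.19). The adaptor Myd88 (0.53) also rose, and the flagellin receptor Tlr5 (-0.34) and the lipopolysaccharide-binding protein Lbp (-0.31) fell. Cell death regulators had 8 of 28 higher and 0 lower (median 0.17), led by Apaf1 (1.06), the scaffold of the apoptosome, and Bid (0.89), which links death receptors to mitochondria. Apaf1 read 388 and 465 and 880.1 and 884. Bik (0.59), Mlkl (0.57), the effector of necroptosis, and Casp6 (0.55) rose by less, and the survival factor Mcl1 (-0.06) was not called. Myd88, Tlr5, Lbp, Mlkl and Casp6 lost their calls after normexp, and Tlr5 and Lbp lost theirs when 1 of the 4 arrays was left out. The calls of Tlr5 and Lbp were lost whichever array was left out. Myd88, Bid and Mlkl have other probes, of which none was called in the same direction.

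Interferon response genes rose broadly. Of 37 tested, 21 were higher and 0 lower, with a median of 0.43. The guanylate-binding protein Gbp2 read 264 and 251 untreated and 699 and 809 after 2 days (1.55), and the ubiquitin-like modifier Isg15 read 422 and 363 and 872 and 1046 (1.29). Oasl2 (1.46), Parp14 (1.29) and Gbp3 (1.09) also rose. The factors Irf3 (-0.25) and Irf2 (0.01) and the GTPase Irgm1 (0.19) were not called, but another probe of Irgm1 was called higher (0.49). The enzyme that attaches Isg15 to proteins, Ube2l6, read 642 and 589.5 and 1046 and 1362 (0.96). Oasl2 and Parp14 have other probes, of which none was called in the same direction.

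Antigen presentation and immunoproteasome genes had 16 rises and 0 falls among 24 tested, with a median of 0.45. Catalytic subunits of the immunoproteasome led after Ubd: Psmb10 read 1005 and 1056 untreated and 2753 and 2652 after 2 days (1.39) and Psmb8 read 839 and 968 and 2263 and 2318 (1.35). Tapbp (0.99), tapasin, which loads peptides, and the class I heavy chain H2-K1 (0.80), whose probe may bind RNA of close relatives, rose as well. The transporter Tap1 (0.28), the light chain B2m (0.33) and the class II chain H2-Ab1 (0.32) were not called. In the constitutive proteasome and ubiquitin list 2 of 29 were higher (6.9%, near the 6.74% of all genes). These were Ube2l6 and Psma7 (0.43), and the median was 0.18. Psma7 lost its call after normexp, and Psma7 lost its call when 1 of the 4 arrays was left out. Psma7 has other probes, of which none was called in the same direction. After normexp, where 2.6% of all genes were called higher and 2.28% lower, 8 antigen presentation, 12 interferon response, 4 cell death, 4 adhesion and 3 cytokine genes were higher. Of the constitutive proteasome list 4 were higher without replicate 1 of the 2 day group and 1 without its replicate 2 or untreated replicate 1.

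**Figure D4:**
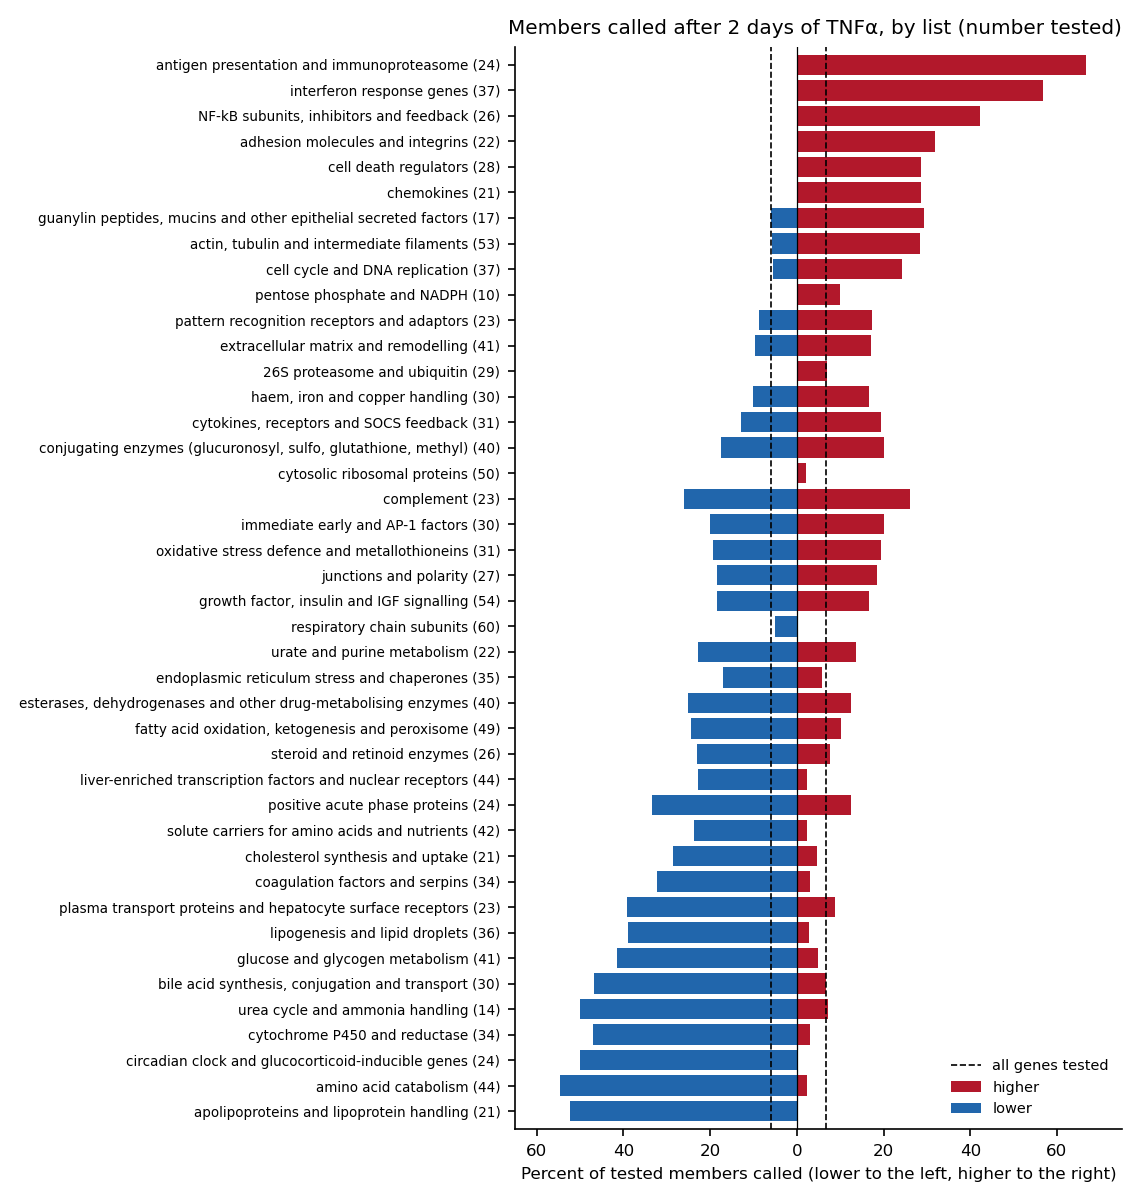
Percent of the tested members of each of 42 lists that were called higher (red, to the right) or lower (blue, to the left) after 2 days, with the number tested in brackets; dashed lines mark the percent of all genes called (6.74 higher, 5.92 lower). Antigen presentation and interferon response genes reach furthest to the right and amino acid catabolism, apolipoprotein, urea cycle and clock or glucocorticoid-inducible genes furthest to the left, while ribosomal protein and respiratory chain genes stay within the dashed lines.

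More plasma protein genes fell than rose. Positive acute phase proteins, which the liver secretes more of in inflammation, had 3 of 24 tested higher and 8 lower (median -0.03). Saa3, Hamp (1.06), the hormone that blocks iron export, and Orm2 (0.57), an acid glycoprotein, rose, and Hamp read 1045 and 735 untreated and 1485 and 2252 after 2 days. Mt2, a metallothionein, went from 1292 and 1005 to 546 and 478 (-1.16), and the fibrinogen chains Fga and Fgg from 17131 and 12313 to 7384 and 8187 (-0.90) and from 6547 and 5282 to 3172 and 3308 (-0.86). Itih3 (-0.83), an inter-alpha inhibitor chain, and the protease inhibitor Serpina3n (-0.79) fell too. Haptoglobin, Hp, was not called on its brightest probe (-0.03), but its 2 other probes, both called higher, gave 0.77 and 0.82, and the mean over its probes was called higher (0.52, adjusted p = 0.00105 by limma). Hpx (-0.12), Cp (0.15), Lcn2 (0.04) and Mt1 (0.15) were not called. The highest intensity in the table is 47615.3, and Hpx (47015 and 47615 untreated) and Lcn2 (44791 and 44284) read at or near it, which left little room for a rise. The other probe of Hpx was called higher (0.41). Hamp and Orm2 lost their calls after normexp, and Orm2 lost its call when 1 of the 4 arrays was left out.

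Of 23 plasma transport proteins and surface receptors 9 were lower and 2 higher (median -0.23). The asialoglycoprotein receptor subunit Asgr1, which clears glycoproteins, read 4810.4 and 3926 untreated and 1369.6 and 1490.1 after 2 days (-1.60), and the growth factor Igf1 read 6439 and 5553 and 2816 and 2740.4 (-1.11). Apoh (-1.12), Rbp4 (-0.85), the carrier of retinol, Egfr (-0.76), Ahsg (-0.48) and Tfr2 (-0.47) fell. Tfrc (0.43), the transferrin receptor, and Serpina7 (0.44), a thyroxine carrier, rose. Ttr (-0.28), Trf (-0.14), transferrin, and Mup3 (-0.07) were not called, with Trf (44417 and 43704 untreated) and Mup3 (35408 and 38927) also near the top of the range. Apolipoproteins and their partners had 11 of 21 lower and 0 higher, at a median of -0.39. Apoa1, the main protein of high-density lipoprotein, read 41417 and 41715 and 25181 and 21975 (-0.82), and Apoc4 (-1.28), Apoc2 (-1.13) and Apoc3 (-0.90) fell beside Apoa4. Untreated, Apoc3 (47615 and 44417) and Apoa1 read at or near the top of the range, so their falls may be understated. Apob (-0.01) and Apoa2 (-0.21) were not called, but the other probe of Apoa2 was called lower (-0.37). Rbp4, Ahsg, Tfr2, Tfrc and Serpina7 lost their calls after normexp, and Rbp4, Ahsg, Tfrc and Serpina7 lost theirs when 1 of the 4 arrays was left out. Tfr2, Tfrc, Serpina7 and Apoc2 have other probes, of which none was called in the same direction.

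Coagulation factors and serpins had 11 of 34 lower and 1 higher (median -0.15). The list does not hold every serpin: Serpina7, above, and Serpina12, below, are outside it and were called higher. Coagulation factor F10 read 4845 and 4357 untreated and 1683 and 1901 after 2 days (-1.36), and Serpinf2, the plasmin inhibitor, 5979 and 4637 and 2317 and 2649 (-1.09). Proz (-1.20) and its partner Serpina10 (-1.18), and F12 (-1.12), which starts contact activation, also fell, while Serpind1 (0.69), heparin cofactor II, rose. Serpina1b (-0.26), Serpina1d (-0.14) and Serpina1e (0.10), near-identical copies of alpha-1 antitrypsin whose probes may not tell them apart, were not called. In complement 6 of 23 rose and 6 fell. C2 (0.69), a protease of the classical pathway, C1qb (0.75), C1qc (0.42) and C1qa (0.36), chains of its recognition molecule, Cfp (0.46), properdin, and C4b (0.38) rose. The inhibitor C4bp (-0.85), the terminal components C6 (-0.81) and C8b (-0.60), Cfi (-0.44) and Masp2 (-0.42) fell. Serpind1, C1qc, C4b, C8b, Cfi and Masp2 lost their calls after normexp, and C1qc, C1qa, C4b and Masp2 lost theirs when 1 of the 4 arrays was left out. C4b, C4bp and C6 have other probes, of which none was called in the same direction. After normexp 4 plasma transport, 7 apolipoprotein, 5 coagulation and 2 complement genes were lower, and of acute phase genes 1 was higher. Coagulation genes that were higher numbered 2 without untreated replicate 1 and 3 without replicate 1 of the 2 day group.

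Genes of nitrogen metabolism fell. In the urea cycle and ammonia list 7 of 14 tested members were lower and 1 higher (median -0.35). Ass1, which joins citrulline and aspartate, read 6461 and 5897 untreated and 1881 and 2055 after 2 days (-1.65), Gpt, alanine aminotransferase, 3666 and 3342 and 1757 and 1532 (-1.09), and Slc25a15 (-0.57), the mitochondrial ornithine carrier, fell by less. Arg2, the mitochondrial arginase, moved the other way, from 133 and 121 to 199 and 212 (0.70). Glud1 (-0.05), Got2 (-0.25) and Aldh18a1 (-0.03) were not called. Amino acid catabolism had 24 of 44 lower and 1 higher, at a median of -0.39. Genes of methionine and homocysteine use stood out beside Gnmt: Mat1a, which makes S-adenosylmethionine, read 5874 and 5441 and 1739.5 and 1748 (-1.70), Cbs, which starts transsulfuration, 1419.6 and 1285 and 388 and 489 (-1.63), and Bhmt2 2471 and 1974 and 779 and 830.3 (-1.46). Hgd (-1.88), an enzyme of tyrosine breakdown, fell too, and Csad (0.32), which makes taurine, rose. Slc25a15 and Csad lost their calls after normexp, and Csad lost its call when 1 of the 4 arrays was left out. Hgd has other probes, of which none was called in the same direction.

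Purine genes had 5 of 22 lower and 3 higher. Xdh, the enzyme that makes urate, read 436 and 441 untreated and 727 and 696 after 2 days (0.70), whereas Uox, which degrades urate, fell. The salvage enzymes Adk (-0.77) and Hprt (-0.55) fell, as did Urah (-0.43), the next step after Uox, and Nt5e (-0.44). Adsl (0.42) and Gart (0.33), of purine synthesis, rose. Atic (0.07) and Aprt (0.14) were not called. Hprt, Urah, Nt5e, Adsl and Gart lost their calls after normexp, and Urah, Nt5e, Adsl and Gart lost theirs when 1 of the 4 arrays was left out. After normexp 4 urea cycle and 2 purine genes were lower, and 1 purine gene was higher without untreated replicate 1 or without replicate 2 of the 2 day group.

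Cytochrome P450 genes and their partners had 16 of 34 tested members lower and 1 higher (median -0.28), and 11 of them fell at least 2-fold. The exception was Cyp4v3, a fatty acid hydroxylase, with 2005 and 1555 untreated and 2544 and 2459 after 2 days (0.50). Cyp2b23, named above among the largest falls, is not in this list and is not counted here. The electron donors Cyb5a (-0.04) and Cyb5r3 (-0.05) were not called. Conjugating enzymes moved both ways, 8 of 40 higher and 7 lower. Beside the sulfotransferases, Ugt1a1 (-0.91), which conjugates bilirubin, and Gstk1 (-0.51) fell. Several other glutathione transferases rose. Gsta4, which removes lipid peroxidation products, read 341 and 318 and 773 and 686 (1.15), Gsta2 2329.6 and 1551 and 3746 and 3374 (0.90), and Gsta1 (0.87), Gstm2 (0.67) and Gstm6 (0.65) followed, though members of these families are close enough to share probe signal. Gstp1 (-0.04) and Mgst1 (0.26) were not called. Gstk1, Gsta1, Gstm2, Cyp4v3 and Gsta2 lost their calls after normexp, and Cyp4v3 lost its call when 1 of the 4 arrays was left out. After normexp 3 conjugating enzymes were higher and 3 lower, and 4 were lower in the fit that left out untreated replicate 1.

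Of 40 esterases, dehydrogenases and related enzymes 10 were lower and 5 higher. Adh1, alcohol dehydrogenase, read 20535 and 16055 untreated and 5829 and 6561 after 2 days (-1.55), and Aldh8a1 (-1.56), Fmo5 (-1.52), a flavin monooxygenase, Upb1 (-1.12) and Aldh6a1 (-0.83) fell. The carbonyl reductase Cbr3 read 352 and 344 and 1111 and 790.2 (1.43), and Akr1c12 (0.83), Ces1d (0.54) and Akr1a1 (0.37) rose. Aldh2 (0.09) and Ephx1 (0.07) were not called. Steroid and retinoid enzymes had 6 of 26 lower and 2 higher, Hsd17b2 (0.36) and Hsd17b12 (0.32), with Hsd17b7 (-0.64) and Rdh9 (-0.49) after Rdh7. Hsd11b1 (-0.03), which regenerates active glucocorticoid, was not called. Akr1a1, Hsd17b2 and Hsd17b12 lost their calls after normexp, and Akr1a1, Hsd17b2 and Hsd17b12 lost theirs when 1 of the 4 arrays was left out. Akr1a1 and Hsd17b12 have other probes, of which none was called in the same direction. Of the esterase list 3 genes were higher after normexp, and 3 when either untreated array or replicate 2 of the 2 day group was left out. Of the steroid list 0 were higher without untreated replicate 2, without replicate 1 of the 2 day group or after normexp, and 1 without replicate 2 of the 2 day group or with cyclic loess. Normexp called 3 of them lower.

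In bile acid metabolism 14 of 30 were lower and 2 higher (median -0.27). The conjugating enzymes Baat and Slc27a5 read 784 and 508 and 1753 and 1428 untreated and 249 and 239.7 and 592 and 632 after 2 days. Scp2 (-1.04), a sterol carrier, and the uptake carrier Slco2b1 (-0.95) fell. The rises were both of export pumps, Abcc4 from 164 and 166 to 344 and 329 (1.03) and Abcc2 from 608 and 585 to 1316 and 1024 (0.96). Abcc3 (0.28) and Cyp7b1 (0.28) were not called. 

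Glucose and glycogen genes had 17 of 41 lower and 2 higher, at a median of -0.22. G6pc, which releases free glucose, read 807 and 1096 untreated, 304 and 269 at 2 hours and 333 and 241 after 2 days (-1.73). Ppp1r3b, which brings a phosphatase to glycogen, read 898 and 718 and 294 and 285 (-1.47), the glucose transporter Slc2a2 1061 and 862 and 429.5 and 363 (-1.28), and Ugp2 (-1.33) and Tkfc fell. Pklr (0.64), liver pyruvate kinase, and Pygb (0.41) rose, and the glycolytic enzymes Gapdh (-0.08), Ldha (-0.07) and Tpi1 (-0.05) were not called. Another probe of Tpi1 was called lower (-0.36). In the pentose phosphate list 1 of 10 was higher (10%, against 6.74% of all genes), Taldo1 (0.60), transaldolase. Pygb and Taldo1 lost their calls after normexp, and Pygb lost its call when 1 of the 4 arrays was left out. After normexp 11 glucose and 8 bile acid genes were lower.

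Lipid genes fell in several lists. Lipogenesis and lipid droplet genes had 14 of 36 lower and 1 higher (median -0.20). The droplet coat protein Plin5 read 984 and 926 untreated and 359 and 366 after 2 days (-1.40), and Plin4 (-1.18), Lpin1 (-0.97), a phosphatidate phosphatase, Dgat2 (-0.65) and Cidec (-0.60) fell, while the desaturase Fads2 (0.36) rose. Acly (0.17) and Elovl5 (0.08) were not called. Of 21 cholesterol genes 6 were lower and 1 higher, among them Insig2 (-0.92), which retains the sterol sensor, Sqle (-0.80) and Ebp (-0.80) of the synthesis pathway and Stard4 (-0.71), a sterol carrier, with Npc2 (0.48) higher. Fatty acid oxidation and peroxisome genes had 12 of 49 lower and 5 higher. Acot12, an acetyl-CoA thioesterase, read 829.6 and 753 and 261 and 296 (-1.51), and Slc27a2 (-1.10) and Pex11a (-0.66), which divides peroxisomes, fell, while Acot1 (0.60), Acaa1a (0.47) and Acaa1b (0.44) rose. Acadm (-0.28) was not called. Dgat2, Fads2, Npc2, Acaa1a and Acaa1b lost their calls after normexp, and Fads2 and Acaa1b lost theirs when 1 of the 4 arrays was left out. Fads2 and Acot1 have other probes, of which none was called in the same direction. After normexp 5 lipogenesis and 3 oxidation genes were lower, 8 and 4 without replicate 1 of the 2 day group, and 5 oxidation genes were lower without untreated replicate 1. Oxidation genes that were higher numbered 3 when either untreated array or replicate 2 of the 2 day group was left out.

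Respiratory chain subunits had 3 of 60 lower and 0 higher by limma, near the background of 5.92%, with a median of -0.14. This count rose to 9 without untreated replicate 2 and to 8 with cyclic loess scaling, and normexp called 0. Cycs (-0.63), cytochrome c, Ndufb10 (-0.59) and Cyc1 (-0.40) fell, and Cox4i1 (-0.17) and Atp5b (-0.15) were not called. Cytosolic ribosomal proteins had 1 of 50 higher, Rpl34 (0.34), and 0 lower, with a median of 0.04. Haem and metal handling had 5 of 30 higher (16.7%, against 6.74% of all genes) and 3 lower (10%, against 5.92%). Alas1 (-0.66), the rate-limiting enzyme of haem synthesis, fell, and its change at 2 hours was already -0.73. The bilirubin-forming reductases Blvrb (0.76) and Blvra (0.45) and the zinc importer Slc39a4 (0.73) rose. Of 42 nutrient carriers 10 were lower, led by the liver mitochondrial carrier Slc25a47 (-1.72) and the arginine transporter Slc7a2 (-0.96), with Slc6a12 (-0.90), Slc6a13 (-0.64) and Slc25a25 (-0.61). The single carrier that rose was Slc7a11, the cystine importer, which read 254 and 280.3 untreated and 875 and 690.3 after 2 days (1.54). Cycs, Ndufb10, Cyc1, Rpl34, Blvra and Slc6a13 lost their calls after normexp, and Cyc1, Rpl34 and Blvra lost theirs when 1 of the 4 arrays was left out. The call of Rpl34 was lost whichever array was left out. Cycs and Ndufb10 have other probes, of which none was called in the same direction. After normexp 5 nutrient carriers and 1 haem and metal gene were lower and 2 haem and metal genes higher. Haem and metal genes that were higher numbered 3 without untreated replicate 2 or replicate 2 of the 2 day group, and with probe means 1 was lower.

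**Figure D5:**
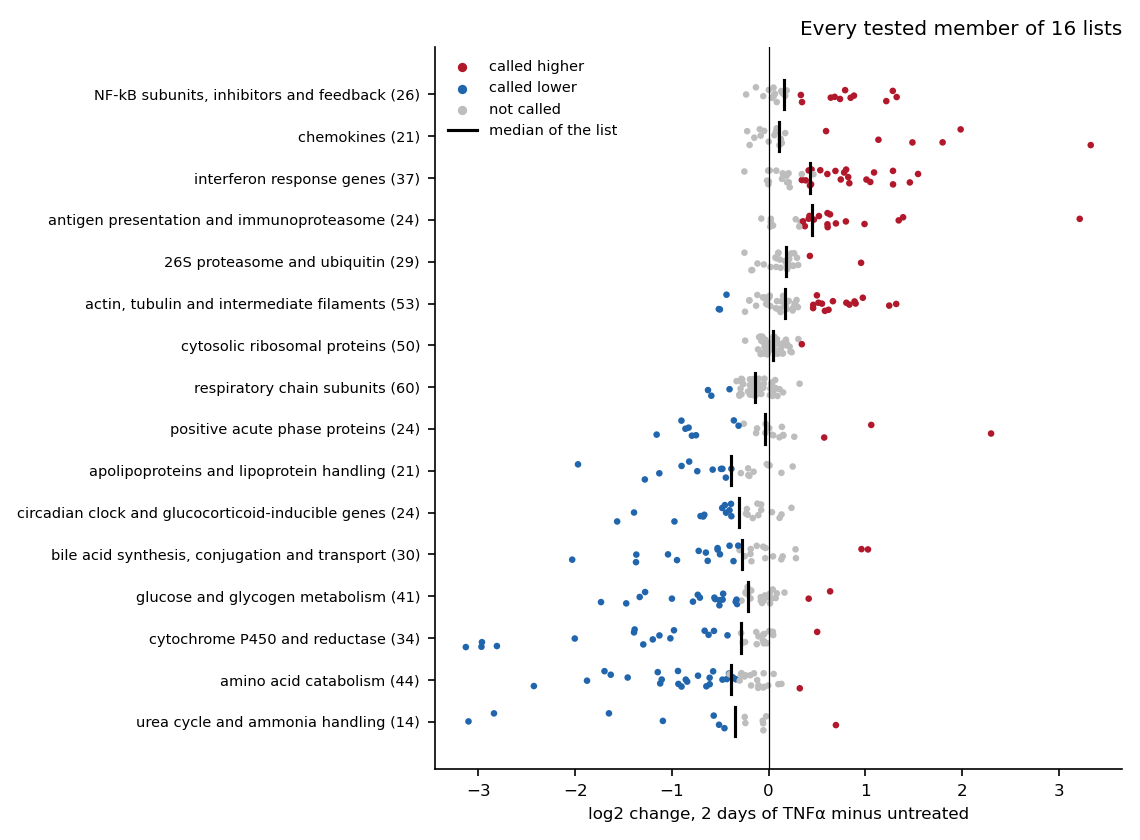
The log2 change of every tested member of 16 lists, 1 point per gene, coloured by its call, with a black bar at the list's median and the number tested in brackets; points are spread vertically for legibility alone. Chemokines hold a few large rises with a median of 0.11, whereas interferon response and antigen presentation genes are shifted as lists, with medians of 0.43 and 0.45, and P450, amino acid and urea cycle genes trail far to the left.

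Liver-enriched transcription factors and nuclear receptors had 10 of 44 lower and 1 higher (median -0.10). Hnf4a, a nuclear receptor that drives many hepatocyte genes, read 2392 and 1982 untreated and 1286 and 1186 after 2 days (-0.82), and Nr1i2, the xenobiotic receptor PXR, 847 and 717 and 400.1 and 429.9 (-0.91). Foxo1 (-0.84), Foxa3 (-0.54) and Cebpb (-0.54) fell, and the repressor Bcl6 went from 578 and 624 to 963 and 868 (0.61). At 2 hours Foxo1 (-0.75) and Bcl6 (0.83) had already been called, whereas Foxa3 (0.003) and Cebpb (-0.09) had not. Cebpg (-0.10), Xbp1 (0.11) and Hhex (0.13) were not called. Clock and glucocorticoid-inducible genes had 12 of 24 lower and 0 higher, at a median of -0.31. Fkbp5, a chaperone partner of the glucocorticoid receptor, read 1603 and 1328 and 491 and 630.0 (-1.39), and Sgk1, a kinase induced by glucocorticoids, 18133 and 18227 and 6744 and 5589 (-1.57). Sgk1 had already dropped to 9114 and 8997 at 2 hours, while Fkbp5 read 1381 and 1381 there. Per1 (-0.70), Klf9 (-0.68), Dusp1 (-0.44) and Cdkn1a (-0.45), all glucocorticoid-inducible, fell. The medium of all 3 groups held dexamethasone. Clock (-0.22) and Bhlhe40 (-0.08) were not called. Foxa3, Cebpb, Klf9, Dusp1 and Cdkn1a lost their calls after normexp, and Cdkn1a lost its call when 1 of the 4 arrays was left out. Foxo1 has other probes, of which none was called in the same direction. After normexp 3 transcription factors and 4 clock or glucocorticoid-inducible genes were lower.

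Immediate early genes had 6 of 30 higher and 6 lower. Atf3 (-0.92) and Fos (-0.62), components of AP-1, and Zfp36 (-0.83), which speeds the decay of cytokine messages, fell below untreated cells, and Ier3 (0.89), Btg1 (0.76), Dusp4 (0.51) and Junb (0.45) stood above them. Zfp36 read 1171 and 928 untreated, 1531 and 1499.8 at 2 hours and 555 and 616 after 2 days. Growth factor genes had 9 of 54 higher and 10 lower: Vegfa (-1.10), Irs2 (-0.75), an insulin receptor substrate, and Igfbp1 (-0.73) fell beside Igf1 and Egfr, and Pdgfb, a growth factor for stellate cells, read 172 and 173 and 372 and 416 (1.19). Smad3 (1.11), which carries transforming growth factor signals, Id1 (0.63) and Bmp4 (0.57) rose. Tgfbr1 (0.07) and Igfbp4 (0.02) were not called. Fos, Junb and Id1 lost their calls after normexp, and Junb lost its call when 1 of the 4 arrays was left out. Dusp4, Junb and Pdgfb have other probes, of which none was called in the same direction. After normexp 3 immediate early genes were higher and 2 lower, and 5 growth factor genes lower.

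Oxidative stress genes had 6 of 31 higher and 6 lower. Selenbp2, a selenium-binding protein, read 3056 and 2371 untreated and 721 and 722 after 2 days (-1.90), and Sesn1 (-1.81), Gclc (-0.76), which limits glutathione synthesis, and Gpx3 (-0.44) fell. Osgin1 (0.98), Prdx2 (0.53) and Gpx2 (0.43) rose with Slc7a11, and Prdx1 (0.08) and Gpx1 (0.17) were not called, the latter with a 2 day array at the top of the range. Endoplasmic reticulum genes had 2 of 35 higher (5.71%, against 6.74% of all genes) and 6 lower (17.1%, against 5.92%). The calcium-binding chaperone Calr (0.60) and Pdia3 (0.54), both also of peptide loading, rose. Herpud1 (-0.64), Dnajc3 (-0.51) and Chac1 (-0.46) were among the falls. Hspa8 (-0.10) and P4hb (-0.26) were not called, but another probe of Hspa8 was called higher (0.46). Cell cycle genes had 9 of 37 higher and 2 lower (median 0.17), with the replication licensing genes Mcm4 (0.74), Mcm5 (0.49) and Mcm6 (0.46), the kinase Cdk4 (0.67) and its cyclin Ccnd1 (0.55) higher, and the inhibitors Cdkn1a and Rb1 (-0.41) lower. Prdx2, Calr, Pdia3, Herpud1, Dnajc3, Chac1, Mcm6 and Rb1 lost their calls after normexp, and Gpx3, Gpx2, Chac1, Mcm6 and Rb1 lost theirs when 1 of the 4 arrays was left out. Cdk4 has other probes, of which none was called in the same direction. After normexp 3 oxidative stress and 4 cell cycle genes were higher and 0 endoplasmic reticulum genes lower. Without replicate 2 of the 2 day group 3 oxidative stress genes were higher and 3 endoplasmic reticulum genes lower, and 5 cell cycle genes were higher without untreated replicate 2 or without replicate 1 of the 2 day group.

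Cytoskeletal genes rose more often than they fell. Of 53 cytoskeletal genes 15 were higher and 3 lower (median 0.17). Msn, moesin, which ties actin to the membrane, read 347 and 336 untreated and 844 and 859 after 2 days (1.32), and the galectin Lgals1 3214 and 2508 and 6386 and 7117 (1.25). The tubulins Tubb2b (0.97) and Tuba1a (0.90), whose relatives are close in sequence, and Lgals3 (0.89) rose, and S100a10 (-0.51), Acta1 (-0.50) and S100a6 (-0.44) fell. The hepatocyte keratin Krt8 (-0.13), Actb (0.25) and Tmsb10 (0.13) were not called. In junctions 5 of 27 rose and 5 fell: Gjb2, the gap junction protein connexin 26, read 4534 and 3666 and 1842 and 1625 (-1.24), Cldn1 (-0.56) fell, and Cldn4 went from 3943 and 3414 to 6507 and 7712 (0.95) with Cdh1 (0.52), E-cadherin. Matrix genes had 7 of 41 higher and 4 lower, with the protease inhibitor Timp1 (0.87), Col4a2 (0.63) and Lamb3 (0.53) of the basement membrane higher and Col18a1 (-0.61), Sdc2 (-0.60) and Fn1 (-0.44), fibronectin, lower. Of 17 secreted epithelial factors 5 were higher and 1 lower, and Wfdc2, a secreted protease inhibitor, read 483 and 422 and 1397 and 1218 (1.53). S100a10, Acta1, S100a6, Cdh1, Sdc2 and Fn1 lost their calls after normexp, and Acta1, S100a6, Cdh1 and Fn1 lost theirs when 1 of the 4 arrays was left out. Cdh1 and Col18a1 have other probes, of which none was called in the same direction. After normexp 7 cytoskeletal, 3 matrix and 1 junction genes were higher. With arrays left out, 2 junction genes were higher without untreated replicate 1, 3 without untreated replicate 2 and 1 without replicate 2 of the 2 day group. Lower junction genes numbered 2 without replicate 1 of the 2 day group, 3 without its replicate 2 and 3 after normexp. Cyclic loess called 3 junction genes higher and probe means 2.

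The labelled cell type was checked against marker genes. In the untreated arrays the hepatocyte markers summed to 200369 and 213411, and after 2 days to 137401 and 145103, with 8 of 14 lower and 0 higher. Apob (-0.01), Ttr (-0.28) and Trf (-0.14) were not called, and Cyp2e1 (-0.66) fell by less than Cps1 or Cyp3a11. In bulk RNA a smaller share of hepatocytes and less RNA per hepatocyte cannot be told apart. Macrophage markers had 6 of 15 higher, C1qb (0.75), Laptm5 (0.61), Mpeg1 (0.61), C1qc (0.42), C1qa (0.36) and Cd163 (0.31), and summed to 2605 to 2633 untreated and 3066 to 3260 after 2 days. Without replicate 2 of the 2 day group, and also after normexp, 3 of them were higher. The lysozyme Lyz2 (-0.09) and the receptors Vsig4 (0.08) and Marco (0.30) were not called, and Cd68, Clec4f and Cd5l had no passing probe. Endothelial markers summed to 2472 to 2648 and 2567 to 2576, with Oit3 (0.43) higher and Stab2 (-0.37) lower of 13. Stellate cell and fibroblast markers summed to 3729 to 3982 and 4828 to 5294, with Acta2 (0.67) and Ecm1 (0.57) higher and Reln (-0.82) lower of 9, and Lrat, Pdgfrb and Col3a1 had no passing probe. Bile duct markers summed to 5219 to 5724 and 10366 to 11884, with Sox9, Cldn4 (0.95) and Krt23 (0.52) higher of 7, while Krt19 (0.19), Muc1 (0.06) and Prom1 (-0.05) were not called and Epcam and Spp1 had no passing probe. Most of the rise in this sum lay in Cldn4 and Sox9, and the median change of the 7 was 0.19. Of 6 lymphocyte and neutrophil markers and 1 erythroid marker 0 were called by limma. Wherever a list had 0 calls in a direction by limma, at most 1 of its members had an unadjusted p under 0.05 in that direction, and normexp called 0. The part of these other cell types in the rises of inflammatory, complement, matrix and epithelial genes was not tested. Cyp2e1, Mpeg1, C1qc, Cd163, Oit3, Stab2, Acta2, Ecm1 and Krt23 lost their calls after normexp, and C1qc, C1qa, Cd163, Oit3, Stab2, Acta2, Ecm1 and Krt23 lost theirs when 1 of the 4 arrays was left out. The call of Cd163 was lost whichever array was left out. Oit3, Ecm1 and Reln have other probes, of which none was called in the same direction.

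Some genes crossed the middle of the array, a description without a test. Intensities at or below the 50th percentile in both untreated arrays and above the 70th in both 2 day arrays were found for 12 genes: Ust, Ccl4, Syt1, Fpr2, Rgs4, Arg2, Gpr176, Guca2b, Neurl3, Rasl12, Wfdc17 and H2-M2. The opposite held for 4 genes: Rdh9, Slc16a5, Tmem108 and Wnt4. These genes were picked by their values, so whether they were called says nothing further. The brightest of the 12 after 2 days were Guca2b and Gpr176, while the other 10 read between 174 and 229 there.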

How the data were processed

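RNA of mouse hepatocytes was labelled as biotinylated cRNA with the Ambion MessageAmp kit, per the labels. The authors' deposited values are intensities on a linear scale, and in them all 6 arrays share 1 distribution and none falls below 96.54. Which software scanned and normalized them is not given in the sources. Of 45281 probes, 34885 had 1 gene symbol in the platform annotation, 18 had several and 10378 were absent from it, and RefSeq's gene table supplied current symbols. Probes had to exceed their array's 50th percentile on at least 2 arrays, and the brightest probe stood for each gene. Log2 intensities were fitted with limma 3.58.1 in R 4.3.3, with 1 mean per group over 6 arrays (3 residual degrees of freedom, 21.2 from the prior), after the code had been tested on simulated data. A call needed an adjusted p (Benjamini-Hochberg, over 13438 genes) under 0.05, without a set test.

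The members and the lists were chosen with earlier results of these data known. Named are the 15 largest rises and the 15 largest falls among called genes whose groups do not overlap, leaving out clone and predicted symbols, and of each list up to 5 called genes in each direction and up to 3 that were not called, taken by intensity. Of cell type markers all called genes are named. Genes picked by crossing percentiles, and those of the other observations, were chosen after their values were seen. Alternatives were other scalings, filters, offsets and probe rules, normexp, variance models, the compared groups alone, the replicate number as a block and each array left out. The number of arrays limits the precision.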

Additional observations from a re-analysis of the deposited data

Results flagged for a closer look

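Among the 30 genes with the largest changes at 2 days, 28 differed between 2 days and 2 hours of TNFα by limma in the same fit, and Ccl2 and Saa3 missed the threshold. The 30 were picked by their 2 day arrays, which this difference also uses, so the number that differed follows in part from the choice. Guca2b passed the filter on dim probes through those arrays alone, and Gpr176 would not have passed it without them. The values that follow are log2 differences of 2 days minus 2 hours.

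4 inflammatory genes stood lower at 2 days than at 2 hours. The differences were -1.30 for Vcam1, -1.56 for Icam1, -1.99 for Cxcl1 and -0.96 for Tlr2. The 9 other rises stood higher at 2 days. Ubd differed by 2.79, and the guanylin genes by 1.98 for Guca2b and 1.68 for Guca2a. The epithelial and progenitor genes Sox9 and Krt17 differed by 0.99 and 1.41. Cxcl16, which had already been called higher at 2 hours, differed by 0.90, Igfbp7 by 1.56, Cd44 by 1.45 and Gpr176 by 1.58.

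All 15 falls stood lower at 2 days than at 2 hours. Among P450 genes the differences were -2.69 for Cyp2b10, -2.58 for Cyp3a11, -2.79 for Cyp2a12, -2.50 for Cyp2b23, -2.94 for Cyp17a1 and -1.76 for Cyp2a5. The urea cycle genes differed by -2.92 for Cps1 and -2.87 for Arg1. Rdh7 differed by -2.57, Gnmt by -2.47, Uox by -1.90 and Acnat2 by -1.73. The sulfotransferases Sult1a1 and Sult1d1 differed by -1.99 and -1.72, and Apoa4 by -1.95.

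Probes without a single gene symbol were outside the comparison of genes. Of 4847 such probes that passed the filter, 133 were higher and 163 lower at 2 days than in untreated cells by limma, with 4 and 15 past 2-fold and changes from -2.06 to 2.57.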

How the results depend on the processing

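The 1701 calls between 2 days and untreated cells, 906 higher and 795 lower, stayed within 1.5 times those numbers under median centring, cyclic loess, an offset of 16, the 70th percentile as the filter, an unfiltered table, probe means, trended and robust variance and a fit of the compared groups alone. Normexp with an offset of 16 called 655 genes (349 higher and 306 lower), and 810 between 2 days and 2 hours, where the main number was 2056. The cause was not tested. By construction, an adjusted p under 0.01 left 1075 genes (559 and 516) and a change of at least 2-fold 169 (80 and 89). Leaving out 1 array gave 1150 to 1403 genes, 600 to 715 of them higher and 541 to 688 lower, and 1378 to 2155 between 2 days and 2 hours, with the lone array of a group assumed to vary like the other groups. Without replicate 2 of the 2 day group 600 genes were higher. Same-numbered arrays did not deviate together (correlations of -0.148, -0.075 and 0.036), and a fit with the replicate number as a block called 1638 genes (867 and 771). Of 425 named genes, 107 lost their call after normexp and 35 to 44 when 1 array was left out, and 0 to 24 under the remaining settings. The 425 include genes that were not called and so had no call to lose. The totals with 1 array left out count each fit on its own, and fewer genes kept their call in all 4. Of 864 called genes with other passing probes, 334 had another probe called in the same direction and 3 had 1 called in the opposite direction. Hp alone changed sign with a call, to 0.52 with the mean of its probes. Dim genes are limited by the background that the intensities hold.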

Other observations

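Of the genes that changed at least 2-fold, 40 of the 80 that rose and 27 of the 89 that fell stood in no list above. The genes named here were chosen after their values were seen. Groups without overlap do not set them apart, since all but 2 of the called genes had them. Fgf13, a growth factor homologue that stays inside the cell, read 453 and 409.5 untreated and 1174.8 and 1452.5 after 2 days (log2 1.60). St6gal1, which adds sialic acid to glycoproteins, went from 2245.3 and 2406.7 to 6381.5 and 7148.4 (1.54), and Serpina12, the serpin vaspin, from 771.9 and 662.2 to 1798.5 and 2181.8 (1.47). Acod1, which makes itaconate, read 147.9 and 138.5 untreated and 362.1 and 302.7 after 2 days (1.21). The transcription factor Ets1 stood at 555.6 and 596.7 and at 1410.4 and 1394.8 (1.28). Each of these 5 genes had groups without overlap.

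Among the falls outside the lists, Hpgd, which inactivates prostaglandins, read 1108.1 and 928.4 untreated and 274.8 and 259.9 after 2 days (-1.92). Porcn, which attaches the lipid of Wnt proteins, went from 708.7 and 722.9 to 248.5 and 231.9 (-1.58), and Mfsd2a, a carrier of lysophospholipids, from 914.8 and 826.1 to 284.6 and 296.0 (-1.58). St3gal5, which makes the ganglioside GM3, read 1989.7 and 1780.5 and 659.0 and 706.0 (-1.46). Ttpa, the vitamin E transfer protein, read 933.2 and 750.3 and 357.7 and 357.3 (-1.23), and Gulo, the last enzyme of vitamin C synthesis, 1264.2 and 1090.7 and 513.4 and 584.0 (-1.10). Each of these 6 genes had arrays that did not overlap between the groups and kept its call without any 1 array and after normexp.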
